A study of Mus musculus with 10 samples.

Results

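The expression of 9 transcription factor and chromatin genes of the pluripotent state was followed in E14 mouse embryonic stem cells, an established line. The 9 genes were chosen by symbol, with earlier results of these data known. All 9 were found among the 52636 Ensembl identifiers of the count tables and among the 16005 genes with enough counts to be tested. A first group of 4 holds factors shared by naive and primed pluripotent cells: Pou5f1, Sox2, Sall4 and Utf1. The second group of 5 holds factors of the formative or primed state: Otx2, Pou3f1, Foxd3, Zic2 and Tead2. RNA was sequenced from unedited cells (WT, 2 libraries) and from cells without a binding element for the insulator protein CTCF (CBE-KO, 2 libraries), which the study placed near the HoxA gene cluster. Both genotypes had been kept in serum with LIF and inhibitors of MEK and GSK. Both were then moved to medium without these factors that held retinoic acid at 2 µM (the label writes µm), and RNA was taken at 24 h. No library of cells before retinoic acid was analysed here, so the values compare genotypes at 1 time point. The labels do not say how the element was removed or whether CBE-KO is 1 clone. The 6 Capture-C samples of the series were not analysed here.

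Pluripotency passes through a sequence of states. Naive cells resemble the inner cell mass of the blastocyst, formative cells the epiblast soon after implantation, and primed cells the epiblast before gastrulation. Pou5f1 (also called Oct4) and Sox2 bind DNA side by side at enhancers in all of these states, and Otx2, Pou3f1 (Oct6), Foxd3 and Zic2 join or redirect them as naive cells become formative. Retinoic acid drives such cells out of pluripotency, and Pou5f1 and its partners are silenced on the way.

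Totals were 14108038 to 15632960 counts per library. At these depths, 3 counts, the level taken as the floor of measurement, came to 0.185 to 0.218 CPM (counts scaled to library size as given below), and every member lay above it in every library. The libraries of the 2 genotypes also differed in Y-linked transcripts. Ddx3y, Eif2s3y, Kdm5d and Uty together had 12 and 10 counts in the WT libraries against 2105 and 1875 in the CBE-KO libraries. This difference follows the genotype in every library. Its part in the values below was not tested and cannot be told apart from that of the element. Levels are CPM after TMM scaling (trimmed mean of M-values), without correction for gene length, so they are compared between libraries and not between genes. Log2 fold changes are CBE-KO minus WT and are given ± their standard error.

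**Figure D1:**
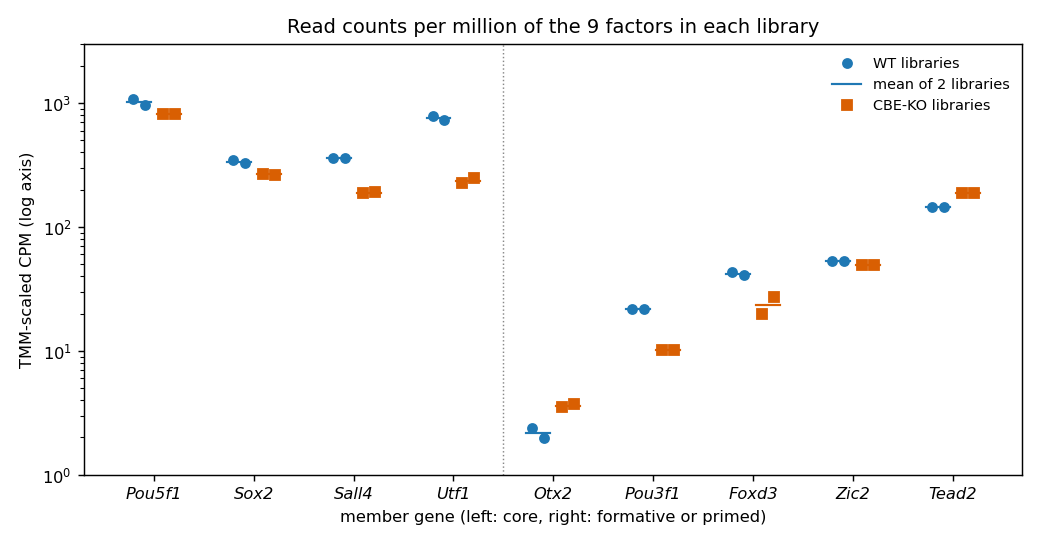
TMM-scaled CPM on a log axis of each of the 9 factors, with 1 point per library (circles WT, squares CBE-KO) and a line at the mean of the 2 libraries. With this scaling both CBE-KO points of every factor lie on the same side of both WT points, by little for Zic2. Foxd3 has the widest gap between its CBE-KO points, 19.8 and 27.1.

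The sequence before the gene start is shown for 3 core factors that were all lower in CBE-KO and for Tead2, which was higher, so that the start regions of factors moving in opposite directions can be read side by side. RefSeq windows (GRCm38.p6, the assembly behind the mm10 name in the submitters' processing notes) were found for 6 of the 9 genes, and none for Sall4, Pou3f1 and Zic2. Each line gives the 250 bases before the gene start, 5′ to 3′ on the strand of the gene. Capitals mark a match, on either strand, to the octamer of POU factors (ATGCAAAT), the SOX core (CTTTGT), the TEAD site (GGAATG), the OTX site (GGATTA) or the half-site of nuclear receptors (AGGTCA), none of which overlapped in these 4 windows.
Utf1, chr7:139943606-139943855, plus strand: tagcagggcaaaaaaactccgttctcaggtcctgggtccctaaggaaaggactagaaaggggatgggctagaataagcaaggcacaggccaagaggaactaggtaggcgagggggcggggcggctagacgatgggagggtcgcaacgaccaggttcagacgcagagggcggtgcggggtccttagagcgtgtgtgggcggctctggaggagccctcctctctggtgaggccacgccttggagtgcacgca
Pou5f1, chr17:35505782-35506031, plus strand: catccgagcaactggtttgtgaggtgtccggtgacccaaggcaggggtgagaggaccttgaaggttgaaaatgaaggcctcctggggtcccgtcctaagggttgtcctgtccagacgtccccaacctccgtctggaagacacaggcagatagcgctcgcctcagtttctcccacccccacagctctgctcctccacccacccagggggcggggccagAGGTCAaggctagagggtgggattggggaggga
Sox2, chr3:34649745-34649994, plus strand: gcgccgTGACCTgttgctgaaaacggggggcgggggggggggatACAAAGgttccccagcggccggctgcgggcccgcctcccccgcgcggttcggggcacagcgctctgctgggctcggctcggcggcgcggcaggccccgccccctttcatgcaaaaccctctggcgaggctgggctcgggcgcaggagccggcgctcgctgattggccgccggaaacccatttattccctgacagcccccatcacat
Tead2, chr7:45215542-45215791, plus strand: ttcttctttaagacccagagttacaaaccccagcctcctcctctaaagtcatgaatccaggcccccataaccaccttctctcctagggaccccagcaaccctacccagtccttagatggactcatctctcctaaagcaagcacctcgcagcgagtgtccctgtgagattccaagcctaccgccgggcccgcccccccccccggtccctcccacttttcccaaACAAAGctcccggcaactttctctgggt

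The full windows of 300 bases, which end 50 bases after the start, were searched for 10 start sites of the 6 genes and for all 32851 windows of the RefSeq table. The nuclear receptor half-site was present once in the first Pou5f1 window and once in that of Sox2, and 16.3% of all windows hold it. No member window held 2 half-sites as an exact direct repeat spaced by 0, 1, 2 or 5 bases. Each such repeat is held by only 0.00609% to 0.0396% of all windows, so absence from 10 windows tells nothing. Imperfect repeats were not searched. The SOX core was present in the windows of Sox2 and Tead2, against 18.7% of all windows. The OTX site was present in 1 of 4 Otx2 windows and in the window of a second Pou5f1 start, against 7.06%. The octamer, held by 1.74% of all windows, and the TEAD site, held by 14.7%, were in no member window. Such matches are letters in a window and do not show binding. The GC content of the windows at the starts of Utf1, Pou5f1 (first start), Sox2, Foxd3 and Tead2 was 61.3% to 66.3%, above the median of 52.7% for all windows. It was 45.7% at the second Pou5f1 start and ran from 41.7% to 53.7% at the 4 Otx2 starts.

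Of the 9 factors, 8 differed between the genotypes in edgeR's quasi-likelihood test (adjusted p under 0.05 over all genes): 6 were lower in CBE-KO and 2 higher. Of all tested genes, 43.1% passed this test, 21.6% as higher and 21.5% as lower. The 9 were chosen with earlier results of these data known, so their excess over this share is description and no test. DESeq2 called 7 of the 9, all but Otx2 and Zic2, and 28.6% of all tested genes. In all 9 factors the CBE-KO libraries did not overlap the WT libraries, as in 70.4% of all tested genes. The median log2 fold change (CBE-KO minus WT) of the 9 was -0.35, against 0.01 for all genes. The core group had a median of -0.64 and the formative group of -0.10. By mean CPM the factors stood above 23.3% (Otx2) to 99.3% (Pou5f1) of the tested genes, so their precision differs.

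**Figure D2:**
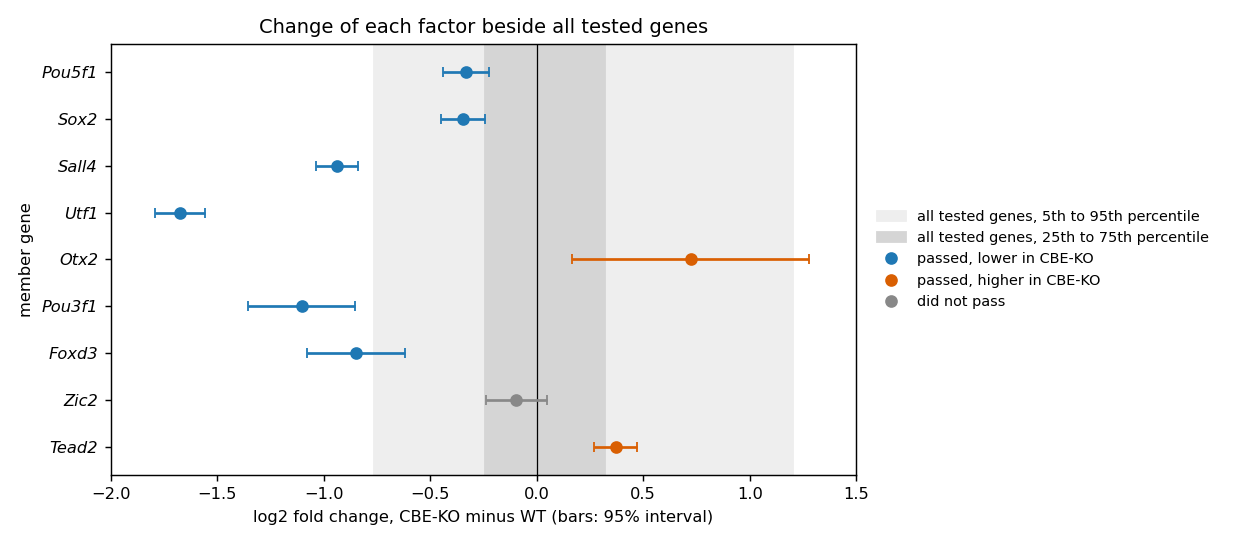
Log2 fold change (CBE-KO minus WT) of each factor with its 95% interval, over the range of all tested genes (light band, 5th to 95th percentile; dark band, 25th to 75th). Utf1, Pou3f1, Sall4 and Foxd3 lie left of the light band, whose lower edge is at -0.76. The interval of Zic2 crosses 0, and that of Otx2 is the widest of the 9.

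All 4 core factors were lower in CBE-KO. Pou5f1 (ENSMUSG00000024406, chr17:35506032-35510777) encodes the POU homeodomain protein on which pluripotency depends. It stood at 1084 and 972 CPM in WT and 817 and 815 CPM in CBE-KO. The 2 CBE-KO libraries were nearly equal, and the WT libraries lay further apart. Its log2 fold change was -0.33 ± 0.05 (edgeR adjusted p = 4.71e-05), a level 1.26-fold higher in WT. In bulk RNA, fewer cells with a transcript and less of it per cell cannot be told apart.

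Sox2 (ENSMUSG00000074637, chr3:34649995-34652461), the partner of Pou5f1 on DNA, was at 347 and 327 CPM in WT and 268 and 263 CPM in CBE-KO. Both CBE-KO libraries were below both WT libraries, by a log2 fold change of -0.35 ± 0.05 (edgeR adjusted p = 1.77e-05). The proportion of the 2 partners differed by less than the spread between WT libraries: Pou5f1 had 3.12 and 2.97 counts for each count of Sox2 in WT and 3.05 and 3.10 in CBE-KO. These ratios are free of library scaling, and the 2 genotypes overlapped. With 2 libraries against 2, an exact permutation test cannot give a two-sided p below 0.333, so none is given for such ratios. The noncoding gene Sox2ot overlaps Sox2 in the annotation. Its counts were 58 and 39 in the WT libraries against 32 and 7 in the CBE-KO libraries. It was lower by edgeR (-1.44 ± 0.41, adjusted p = 0.00842), but not by DESeq2 (adjusted p = 0.239) and not without CBE-KO replicate 2 (log2 fold change -0.79), and without CBE-KO replicate 1 it stood at -2.80. Whether strand was used in counting is not given in the sources used here.

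Sall4 (ENSMUSG00000027547, chr2:168748332-168767201) encodes a zinc finger protein that recruits the NuRD complex and helps keep Pou5f1 active. Its level was 362 and 364 CPM in WT and 188 and 191 CPM in CBE-KO. Replicates of each genotype were within a few CPM of each other, and the groups were far apart: the log2 fold change was -0.94 ± 0.05 (edgeR adjusted p = 6.51e-11), or 1.91-fold higher in WT. For each count of Pou5f1 there were 0.334 and 0.374 counts of Sall4 in WT and 0.231 and 0.234 in CBE-KO, without overlap. The noncoding gene Gm14261, which overlaps Sall4, had 24 counts or fewer in each library.

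Utf1 (ENSMUSG00000047751, chr7:139943856-139945112) encodes a chromatin-bound protein restricted to pluripotent and germ cells, and its enhancer is a classic target of Pou5f1 with Sox2. It was at 783 and 729 CPM in WT and at 226 and 248 CPM in CBE-KO. Both CBE-KO libraries were far below both WT libraries, with a WT level 3.19-fold higher (log2 fold change -1.67 ± 0.05, edgeR adjusted p = 2.72e-13). Only 0.794% of all tested genes had a lower fold change. Per count of Pou5f1, Utf1 gave 0.722 and 0.751 counts in the WT libraries against 0.276 and 0.305, a ratio 2.54-fold higher in WT. Per count of Sall4 it gave 2.16 and 2.01 in WT and 1.198 and 1.303 in CBE-KO. Summed over the 4 core factors, the libraries gave 2577 and 2392 CPM in WT and 1499 and 1517 CPM in CBE-KO.

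**Figure D3:**
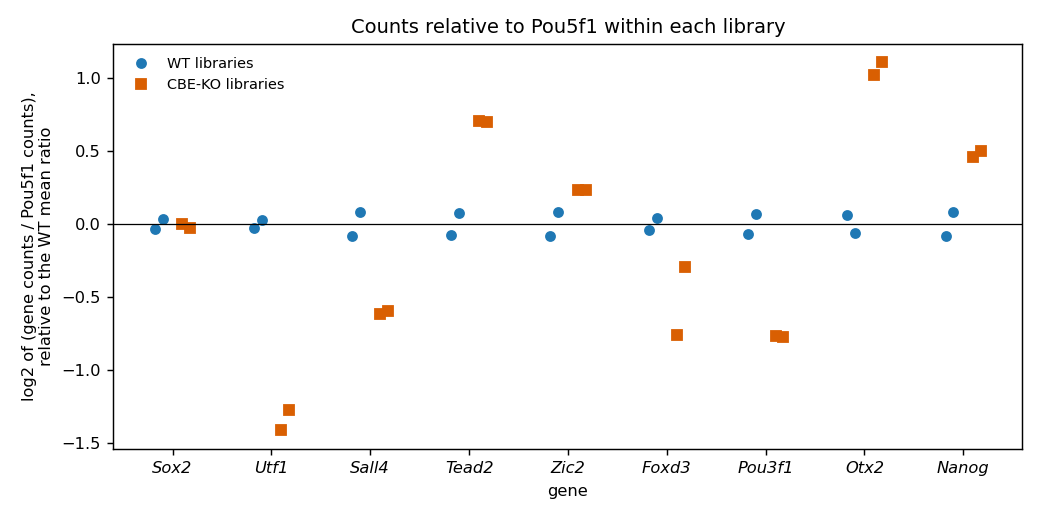
Counts of each gene divided by those of Pou5f1 in the same library, as log2 relative to the mean WT ratio, with 1 point per library (circles WT, squares CBE-KO). Points of Sox2 overlap between genotypes. Utf1, Sall4, Foxd3 and Pou3f1 fall below 0 in both CBE-KO libraries, and Tead2, Zic2, Otx2 and the naive factor Nanog lie above it. Pou5f1 itself was lower in CBE-KO (log2 fold change -0.33), which raises every ratio. Zic2 itself was at -0.10 and did not pass.

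The 5 formative and primed factors did not move as a group: 2 were lower, 2 were higher and 1 did not pass. Their summed level was 266 and 263 CPM in WT and 272 and 278 CPM in CBE-KO. Most of this sum was Tead2, which was higher, at 146 and 145 CPM in WT and 189 and 187 CPM in CBE-KO. The sum therefore does not stand for the other factors of the group. Pou3f1 (ENSMUSG00000090125, chr4:124657646-124660655), a POU factor that pairs with Otx2 at formative enhancers and later marks early neural cells, stood at 22.0 and 21.6 CPM in WT. In CBE-KO it was at 10.2 and 10.1 CPM. The level was 2.15-fold higher in WT, with little spread inside each group (log2 fold change -1.10 ± 0.12, edgeR adjusted p = 1.05e-06).

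Foxd3 (ENSMUSG00000067261, chr4:99656299-99658671) encodes a forkhead repressor needed for the epiblast and later for the neural crest. It had 43.1 and 41.0 CPM in WT and 19.8 and 27.1 CPM in CBE-KO. The CBE-KO libraries differed from each other by more than those of any other factor of the 9 in proportion, yet both were below WT. The log2 fold change was -0.85 ± 0.11 (edgeR adjusted p = 7.89e-06), and leaving out a CBE-KO library moved it to -0.63 (without replicate 1) or -1.09 (without replicate 2).

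Otx2 (ENSMUSG00000021848, chr14:48656781-48667644), the homeodomain factor that directs Pou5f1 to formative enhancers and later patterns the anterior brain, was sparse. WT libraries held 35 and 27 counts (2.40 and 1.96 CPM) and CBE-KO libraries 57 and 54 (3.51 and 3.71 CPM). The CBE-KO libraries lay above the WT libraries, by a log2 fold change of 0.72 ± 0.26 (edgeR adjusted p = 0.0354). The summed counts gave a ratio of 1.65 (exact 95% interval 1.198 to 2.289, counting error only). The call did not hold in DESeq2 (adjusted p = 0.205), nor without WT replicate 2 (0.58, adjusted p = 0.151), CBE-KO replicate 1 (0.76, adjusted p = 0.105) or CBE-KO replicate 2 (0.68, adjusted p = 0.145). The sign was positive in every fit made. The antisense noncoding gene Otx2os1 had at most 1 count in each library.

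Tead2 (ENSMUSG00000030796, chr7:45215792-45233468) encodes a DNA-binding partner of the Hippo pathway coactivators Yap1 and Wwtr1. It was at 146 and 145 CPM in WT and 189 and 187 CPM in CBE-KO, so that both CBE-KO libraries were about equally raised. The log2 fold change was 0.37 ± 0.05 (edgeR adjusted p = 7.98e-06), a 1.29-fold rise. Per count of Pou3f1, Tead2 gave 6.64 and 6.73 counts in the WT libraries against 18.6 and 18.6. This gap follows from Tead2 being higher and Pou3f1 lower in CBE-KO, and adds no separate result.

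Zic2 (ENSMUSG00000061524, chr14:122475384-122480328) encodes a zinc finger protein that binds enhancers in naive and primed cells and patterns the forebrain. It was at 52.7 and 53.0 CPM in WT and 49.6 and 49.3 CPM in CBE-KO. The difference did not pass (log2 fold change -0.10 ± 0.07, edgeR adjusted p = 0.274), and its 95% interval ran from -0.24 to 0.05. Scaling by library totals alone, which moved the median of all genes to 0.11, put Zic2 at 0.01. The other 8 factors kept their sign under each scaling.

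Several families showed members moving in opposite directions. Of all tested genes 21.6% passed as higher and 21.5% as lower, so mixed directions within a family are not unusual. Sall4 fell while Sall1, Sall2 and Sall3, its zinc finger relatives, all rose, by log2 fold changes of 0.39 ± 0.07, 0.95 ± 0.10 and 0.52 ± 0.07 (edgeR adjusted p = 0.000239, 9.32e-07 and 1.48e-05). In WT, Sall1 was at 52.0 and 58.9 CPM and in CBE-KO at 70.2 and 74.8 CPM. Sall2 went from 14.8 and 17.5 CPM to 30.8 and 31.6 CPM. Counts of Sall4 per count of Sall2 were 24.5 and 20.8 in WT and 6.11 and 6.04 in CBE-KO, without overlap.

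Among the SOXB1 genes, close relatives that can act in place of Sox2 in neural progenitors, Sox2 fell and Sox1 and Sox3 rose. Sox3 had 12.2 and 11.9 CPM in WT and 33.0 and 32.3 CPM in CBE-KO (log2 fold change 1.44 ± 0.10, edgeR adjusted p = 5.20e-09). Sox1 had 9.24 and 8.87 CPM against 14.2 and 12.9 CPM (0.58 ± 0.14, adjusted p = 0.00290). Counts of Sox2 per count of Sox3 dropped from 28.5 and 27.6 in WT to 8.12 and 8.14 in CBE-KO. Sox15, a further SOX factor of stem cells, did not pass (-0.16, adjusted p = 0.227).

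In the TEAD family the direction was the other way round for the member: Tead2 rose, Tead1 (-0.29 ± 0.05, edgeR adjusted p = 0.000230) and Tead4 (-0.68 ± 0.11, adjusted p = 6.65e-05) fell, and Tead3 did not pass (0.34, adjusted p = 0.0688). Tead2 had 0.789 and 0.720 counts per count of Tead1 in WT and 1.196 and 1.183 in CBE-KO. Of the TEAD coactivators, 4 of 6 were tested and 1 passed: Wwtr1 (TAZ) rose by 0.63 ± 0.08 (adjusted p = 7.61e-06), while Yap1 did not pass (-0.12, adjusted p = 0.0630). Of 4 genes commonly read as TEAD targets 3 were tested, and 1, Amotl2, passed, as lower (-0.32, adjusted p = 0.000326), and 43.1% of all tested genes passed.

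Zic5, a relative of Zic2 with a role in neural development, was lower by a log2 fold change of -0.43 ± 0.08 (edgeR adjusted p = 0.000333), and Zic1 and Zic4 were too sparse to be tested. Among POU genes, Pou2f2 (Oct2) was lower (-0.66, adjusted p = 1.49e-06), Pou2f1 (Oct1) did not pass (0.04, adjusted p = 0.641), and Pou3f2 and Pou3f4 were not tested. Pou3f3 had 8 and 2 counts in the WT libraries against 19 and 16, and passed in edgeR (adjusted p = 0.0227) but not in DESeq2 (adjusted p = 0.149) or without WT replicate 2 or either CBE-KO library. Its log2 fold change of 1.67 became 2.89 without WT replicate 1 and 1.04 without WT replicate 2. Otx1, the relative of Otx2, had 0 and 3 counts in the WT libraries against 24 and 23 in CBE-KO, a ratio of 14.4 (exact 95% interval 4.65 to 72.5, counting error only; edgeR adjusted p = 0.000292). Its fitted log2 fold change of 3.75 moved to 2.76 without WT replicate 1 and to 7.54 without WT replicate 2, where the remaining WT library is at 0 and the value is no bound. Foxd1 had 1 and 4 counts against 11 and 14 (edgeR adjusted p = 0.0182) and failed the test in DESeq2 (adjusted p = 0.133) or without WT replicate 1 or CBE-KO replicate 2. Its log2 fold change was 2.15, with 1.46 and 3.42 when WT replicate 1 or WT replicate 2 was left out. Crx, Foxd2 and Foxd4 were too sparse to be tested.

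Most of the other formative or primed genes were lower. Of 15 listed, 14 were tested, 9 were lower, 3 higher and 2 did not pass (Lef1 and Zfp281), where 21.5% of all tested genes were lower and 21.6% higher, with a median log2 fold change of -0.48 against 0.01 for all genes. The 3 that rose were Sox11 (1.64 ± 0.13), Sox4 (1.61 ± 0.10) and Sox3, SOX genes that are also expressed in neural progenitors. Grhl2, an epithelial factor that opens enhancers in formative cells, had the lowest fold change of the list, from 7.80 and 7.999 CPM in WT to 3.08 and 2.82 CPM in CBE-KO (-1.42 ± 0.21, edgeR adjusted p = 2.64e-05). Grhl2 and the 3 genes that follow are named after their values were seen. The de novo DNA methyltransferase Dnmt3b was at 186 and 192 CPM in WT and 86.0 and 86.8 CPM in CBE-KO (-1.13 ± 0.05, adjusted p = 1.74e-11). Its relative Dnmt3a fell by 0.57 on the log2 scale and Etv4, an ETS factor downstream of FGF signalling, by 1.008. Fgf5, a widely used marker of the formative and primed state, had 2, 2, 4 and 0 counts in the 4 libraries and was not tested.

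Of 12 naive factors, all tested, 4 were lower, 2 higher and 6 did not pass, with a median of -0.0042. The share that passed was near the 43.1% of all tested genes. Gbx2 (-1.55 ± 0.11, edgeR adjusted p = 5.77e-09), Nr0b1 (-1.04 ± 0.05), Klf4 (-0.49 ± 0.05) and Zfp42 (-0.42 ± 0.04) fell. Nanog and Tfcp2l1 were slightly higher, at 0.15 and 0.16 (adjusted p = 0.0107 and 0.0272). Nanog did not pass without CBE-KO replicate 1 or without CBE-KO replicate 2, and Tfcp2l1 not in DESeq2 (adjusted p = 0.0915), without WT replicate 1 or without CBE-KO replicate 1. Nanog, which together with Pou5f1 and Sox2 forms the core circuit of stem cells, had 0.743 and 0.833 counts per count of Pou5f1 in WT and 1.08 and 1.11 in CBE-KO. This ratio moved more through Pou5f1 (-0.33) than through Nanog (0.15).

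Of 8 genes known as targets of Pou5f1 with Sox2, all tested, 4 were lower, 3 higher and 1, Fbxo15, did not pass. Their median was -0.10 against 0.01 for all genes. The list leaves out the 9 factors, among them the target Utf1 (-1.67). Of all tested genes 21.5% were lower and 21.6% higher. Tdgf1, the Nodal coreceptor, fell from 444 and 425 CPM to 189 and 189 CPM (-1.201 ± 0.048, edgeR adjusted p = 3.52e-12). Zscan10 (-0.74), Fgf4 (-0.34) and Dppa4 (-0.24) were also lower, the last not without CBE-KO replicate 1. Spp1 (0.25), Lefty1 (0.31) and Nanog were higher, and Lefty1 did not pass without CBE-KO replicate 2.

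The NuRD complex, a nucleosome remodeller and deacetylase that Sall4 binds, had 11 subunits tested. Of these 5 were lower and 2 higher, where 21.5% and 21.6% of all tested genes were, with a median of -0.09 and a range of -0.43 (Mta3) to 0.54 (Mta1). The other lower subunits were Rbbp7 (-0.34), Mbd3 (-0.23), Rbbp4 (-0.20) and Chd4 (-0.14). Rbbp4 did not pass with library totals alone (adjusted p = 0.0893), and neither did Chd4 (adjusted p = 0.587). Chd4 also did not pass with upper-quartile factors, alone or with the replicate block, or without either CBE-KO library. Hdac2 (0.16) did not pass in DESeq2 (adjusted p = 0.0696), without WT replicate 2 or without either CBE-KO library.

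**Figure D4:**
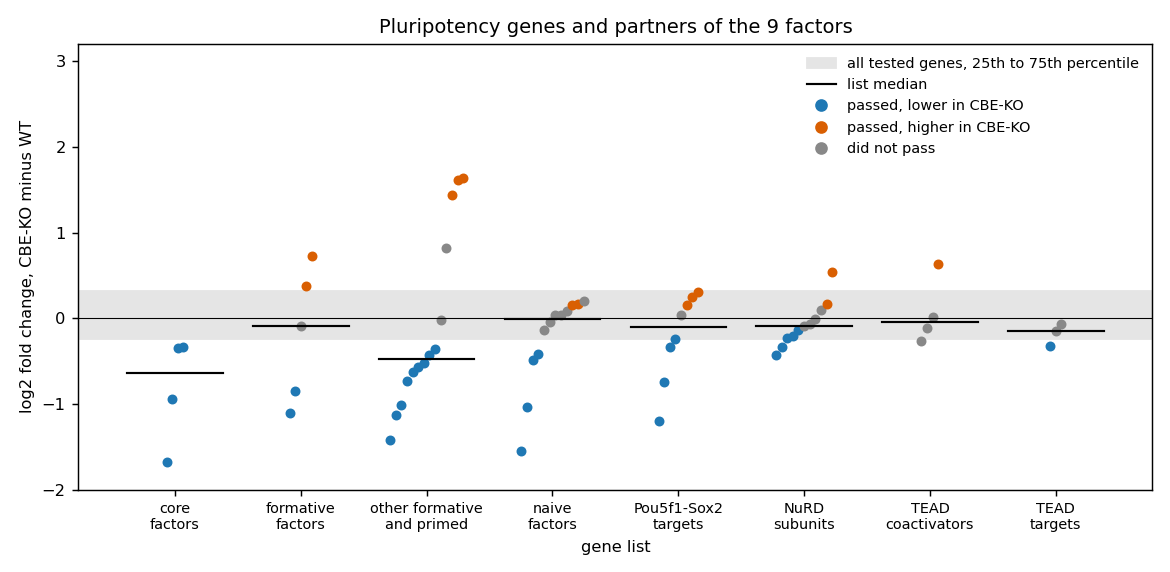
Log2 fold change (CBE-KO minus WT) of each tested gene in 8 lists, with a line at each list's median and a grey band for the 25th to 75th percentile of all tested genes (-0.24 to 0.32). All 4 core factors lie below the band. The other formative and primed genes include 9 that passed as lower and, far above them, Sox3, Sox4 and Sox11.

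Markers of other cell types and states moved with the genotype to differing degrees, and their part in the results above was not tested. Of all tested genes 43.1% passed, and the primitive endoderm list, at 3 of 7, was near that share. Of 4 markers of the 2-cell-like state, a rare state of stem cell cultures, 3 were tested and all 3 rose: Zscan4c (2.39), Zscan4d (2.06) and Usp17lc (1.39). Zscan4c and Zscan4d are near-identical copies, so reads may be split between them. The summed level of the list was 5.34 and 5.02 CPM in WT and 21.1 and 22.1 CPM in CBE-KO. Of 5 neuroectoderm markers 3 were higher (Pax6, Sox1 and Zfp521), 1 was lower (Tubb3) and 1 did not pass (Nes). Pax6 and Zfp521 were sparse in WT, with 10 and 9 counts against 40 and 41, and 4 and 4 against 54 and 53. The 5 markers summed to 98.1 and 88.0 CPM in WT and 71.2 and 71.8 CPM in CBE-KO. Most of this sum was Tubb3, at 74.3 and 64.5 CPM in WT and 40.4 and 41.2 CPM in CBE-KO. Of 7 primitive endoderm markers 3 were higher (Gata4, Sox7 and Dab2, the last not in DESeq2, adjusted p = 0.0548, nor without CBE-KO replicate 1) and 4 did not pass, with sums of 87.5 and 87.5 CPM in WT and 98.6 and 100.7 CPM in CBE-KO. Of 6 trophoblast markers, 5 were tested and 1, Tfap2c, passed, as lower, with sums of 38.7 and 37.4 CPM against 29.6 and 30.2 CPM. Of 4 mesoderm markers, 3 were tested and Kdr passed, as higher (1.49, adjusted p = 0.0243). It did not pass in DESeq2 (adjusted p = 0.163), without either WT library or without CBE-KO replicate 2. The list summed to 2.53 and 2.62 CPM in WT and 3.45 and 4.12 CPM in CBE-KO. Of 7 fibroblast markers, Postn, Dcn and Lum had 0 counts in every library, which allows up to 0.218 CPM each, and 1 of 2 tested, Col1a1, was higher. Col1a2 had 0 and 1 counts in the WT libraries against 12 and 8, and Col3a1 had 0 and 0 against 8 and 1. Both were too sparse to be tested. The sum of the list was 11.4 and 12.9 CPM in WT and 14.8 and 17.6 CPM in CBE-KO. Most of it was Thy1, which did not pass, at 8.08 and 9.23 CPM in WT and 7.70 and 10.1 CPM in CBE-KO.

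Genes listed as general markers of embryonic stem cells had counts in all 4 libraries. Tdgf1 and Fgf4 were already counted among the targets of Pou5f1 with Sox2. Trim28 encodes a corepressor that is not restricted to stem cells. All 6 passed, against 43.1% of all tested genes, 5 of them lower: Tdgf1, Lin28a (-1.05 ± 0.05), Gdf3 (-0.56 ± 0.07), Trim28 (-0.44 ± 0.04) and Fgf4. Dppa5a, a stem cell RNA-binding protein, was higher (0.28 ± 0.04, edgeR adjusted p = 2.55e-05). The summed level of the 6 genes was 6779 and 6671 CPM in WT and 6389 and 6490 CPM in CBE-KO. Most of it was Dppa5a, at 3554 and 3440 CPM in WT and 4204 and 4305 CPM in CBE-KO. The sum therefore hides much of the fall of the 5 lower genes.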

How the data were processed

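The deposited values are raw read counts per Ensembl gene, 1 table per library, without normalization. HISAT2 2.1.0, HTSeq 0.9.1, DESeq2 1.18.1 and the build mm10 are named in the submitters' processing notes, without roles. The annotation release and the use of strand are not given in the sources used here. Every table row names a gene. The series describes its replicates as biological.

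Symbols came from a supplied table that matched 52403 of 52636 identifiers. Genes passing edgeR's filterByExpr (16005) were scaled by TMM and tested with edgeR 4.0.16 (glmQLFit, glmQLFTest; R 4.3.3; two-sided, no covariate, Benjamini-Hochberg over all tested genes, threshold 0.05). The standard error is the absolute log2 fold change divided by the root of F, and 95% intervals use the moderated degrees of freedom. Replicates differed by more than sampling noise (chi-square per degree of freedom 3.66 for WT, 2.84 for CBE-KO). The scripts were tested on simulated counts. The 4 libraries, at 2 per genotype, limit precision, and the exact intervals and the floor of 3 counts cover counting error only.

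The members and gene lists were chosen with earlier results of these data known, and lists are described by counts and medians without a test. The text names all 9 members, the tested paralogues in the lists and, from other lists, the 3 largest changes that passed plus any group of 5 or fewer. Grhl2, Dnmt3b, Dnmt3a and Etv4 were named outside this rule. A further gene was left out of the lists and is not reported here. For each member the nearest gene was found by Euclidean distance between centred log2 CPM profiles over the 4 libraries, among 9556 genes with a mean of at least 10 CPM. Alternatives were DESeq2 1.42.0, 3 other scalings, 2 other filters, a block on replicate number, that block together with upper-quartile factors, robust moderation and leaving out each library. Motifs were matched exactly on both strands. A planned comparison of protein sequences was not made, and levels between genes were not compared because exon lengths were not used here.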

Additional observations from a re-analysis of the deposited data

How the results depend on the processing

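DESeq2 called 4577 genes in all, 2047 of them higher, against 6895 and 3461 in edgeR. The cause was not tested. All other settings gave 5492 to 7150 genes. The share of calls that were higher was 50.2% with TMM, 67.0% with library totals alone and 44.7% in DESeq2. Of the 9 factors, 7 or 8 passed in every setting, and the call that was lost was that of Otx2. Zic2 changed sign, to 0.0080, with library totals alone (adjusted p = 0.941). Over its alternatives the adjusted p of Otx2 ran from 0.0151 to 0.205. The log2 fold changes of the other 7 factors that passed ranged from -0.42 to -0.23 for Pou5f1, -0.39 to -0.24 for Sox2, -0.95 to -0.83 for Sall4, -1.75 to -1.57 for Utf1, -1.12 to -0.999 for Pou3f1, -1.09 to -0.63 for Foxd3 and 0.36 to 0.47 for Tead2, all past the threshold in each of the 13 alternatives. Of the genes in the pathway, partner and family lists 43 of 64 tested passed (67.2%, against 43.1% of all tested genes), and 38 to 46 did under the alternatives, with 39 of 64 in DESeq2 (60.9%, against 28.6%). The lists were chosen with earlier results of these data known, so their excess over all tested genes is description and no test. When a library was left out, the lone library was assumed to vary like the other genotype. In the fit with a replicate block 7027 genes, 8 factors and 43 list genes passed. Deviations of same-numbered libraries had a correlation of 0.032, and the labels give no shared origin, so the numbers were not taken as pairs. Depth limits Otx2, Otx1, Foxd1 and Pou3f3.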

Other observations

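For each of the 9 factors, 1 gene had the most similar profile over the 4 libraries, a likeness that rests on 2 libraries per genotype and says mainly that the genotypes differ by about as much. For Sall4 it was Actn4, an actin crosslinker, at 1484 and 1514 CPM in WT and 784 and 782 CPM in CBE-KO (distance 0.022 in log2 units). For Utf1 it was Exoc3l, at 18.6 and 19.4 CPM in WT and 5.61 and 6.12 CPM in CBE-KO, and the distance of 0.12 was the largest of the 9. For Otx2 it was Gata4, a transcription factor of endoderm and heart, at 8.56 and 6.98 CPM in WT and 12.3 and 13.3 CPM in CBE-KO. The nearest genes of Pou5f1, Sox2, Pou3f1, Foxd3, Zic2 and Tead2 were Pigm, Thumpd3, Adap1, Gm26917, Dmwd and Gpbp1l1.

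Otx2 and Gbx2, homeobox genes with opposing domains along the early brain, differed in opposite directions. The Otx2 call rests on few counts and did not hold in DESeq2 (adjusted p = 0.205). Gbx2 was 2.93-fold higher in WT and Otx2 1.65-fold higher in CBE-KO, so the ratio below moved more through Gbx2. There were 0.0829 and 0.0668 counts of Otx2 per count of Gbx2 in WT and 0.356 and 0.370 in CBE-KO.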
